A study of Mus musculus with 8 samples.

Results

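AP-1 is a family of dimeric transcription factors that bind DNA through a basic region and a leucine zipper. The genes described here are its Fos members (Fos, Fosb, Fosl1 and Fosl2), its Jun members (Jun, Junb and Jund), the related stress factor gene Atf3 and the zinc finger genes Egr1 and Egr2. All 10 symbols were looked up in a table of 23358 gene rows, and each had 1 row. RNA was sequenced in bulk from outflow veins of arteriovenous fistulas in C57BL6J mice that had been given a model of chronic kidney disease, as 4 samples with mesenchymal stem cells (MSC) and 4 with vehicle. The fistula between carotid artery and jugular vein followed 28 days after induction of kidney disease, and veins were taken 3 days later. In the MSC group, 250000 cells from a C57 donor matched for sex lay on the outer surface of the vein, so their RNA cannot be told apart from that of the host. The vehicle samples carried the same kidney disease and the same fistula, and a second label field gives them as NT. Nothing in the labels ties a sample to an animal of its own, so every p-value measures the spread between these samples, which may be technical.

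Fos and Jun proteins pair with each other, and the pair binds and switches on genes of growth, matrix breakdown and inflammation. Several of the 10, among them Fos, Fosb, Egr1, Egr2 and Atf3, are immediate-early genes. The RNA of such genes is made within minutes of a growth factor, mechanical or stress signal, wounding of tissue included, and is lost again soon after. The signal runs through MAP kinases to factors already present at the promoter, such as serum response factor (SRF), which binds the CArG box, and CREB, which binds a cyclic AMP response element. In injured vessels, Egr1 and AP-1 are known for switching on growth factors and proteases in smooth muscle, endothelial and inflammatory cells.

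Values are RPKM, which divide a gene's reads by its length and by the depth of the sample, so levels of genes of different length can be compared. Reads recovered from the steps of the RPKM values came to 29.9 to 38.2 mega-reads per MSC sample and 26.9 to 33.3 per vehicle sample. Vehicle replicate 1 stood apart, with a median Spearman correlation over genes of 0.956 with its own group, against 0.973 to 0.982 for the other 7 samples. Of the vein's own cell types, summed RPKM was 225 to 293 in MSC and 165 to 296 in vehicle samples for 8 smooth muscle markers, and 430 to 726 in MSC and 570 to 697 in vehicle samples for 10 endothelial markers. No marker on either list was at 0 in all samples. Genes of fat cells were measured in the veins as well. Summed RPKM of 10 adipocyte markers was 391 to 1887 in MSC and 3254 to 4772 in vehicle samples, with no overlap. That of 10 thyroid and salivary gland markers was far lower, at 1.82 to 9.83 in MSC and 12.4 to 19.2 in vehicle samples, also with no overlap. Most of that sum was Amy1 alone, with a mean of 4.35 RPKM in MSC and 12.4 in vehicle samples. Only 2 of these 10 markers had enough RNA to be tested, and 1 of the 2 passed as lower in MSC veins. Within each group, the adipocyte sum and the gland sum ranked the samples in the same order. The part of either list in the values below was not tested beyond a fit with the adipocyte score. In bulk tissue, fewer cells of a type and less RNA per cell cannot be told apart.

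Promoter windows are shown for 3 of the genes, picked for the motifs they hold. All 3 windows hold the core letters that CREB is known to bind, and that of Egr2 also holds the CArG box of SRF. Windows of Junb and Atf3 hold those core letters as well and are not shown. Any part of these motifs in the RNA values was not tested. Each window is 300 bases long and ends 50 bases past the RefSeq start site, on GRCm38.p6. Capitals mark every match, on either strand, to TGACG (the core of a cyclic AMP response element), in Fosb also to GCGNGGGCG (the Egr motif) and in Egr2 also to the CArG box. No 2 capital stretches overlap. The Fos window is chr12:85473640-85473939 on the plus strand, that of Fosb chr7:19309996-19310295 on the minus strand and that of Egr2 chr10:67537619-67537918 on the plus strand.
Fos: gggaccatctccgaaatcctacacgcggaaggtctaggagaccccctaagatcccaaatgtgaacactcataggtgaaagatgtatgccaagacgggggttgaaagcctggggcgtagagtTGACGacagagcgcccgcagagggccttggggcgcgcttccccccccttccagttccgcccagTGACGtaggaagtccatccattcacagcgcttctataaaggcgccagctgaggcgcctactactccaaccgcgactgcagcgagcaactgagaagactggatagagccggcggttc
Fosb: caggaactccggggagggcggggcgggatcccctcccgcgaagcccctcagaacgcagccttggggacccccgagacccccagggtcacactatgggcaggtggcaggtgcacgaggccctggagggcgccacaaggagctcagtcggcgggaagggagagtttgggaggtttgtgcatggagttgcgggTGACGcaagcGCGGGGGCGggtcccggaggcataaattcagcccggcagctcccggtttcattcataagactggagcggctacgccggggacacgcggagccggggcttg
Egr2: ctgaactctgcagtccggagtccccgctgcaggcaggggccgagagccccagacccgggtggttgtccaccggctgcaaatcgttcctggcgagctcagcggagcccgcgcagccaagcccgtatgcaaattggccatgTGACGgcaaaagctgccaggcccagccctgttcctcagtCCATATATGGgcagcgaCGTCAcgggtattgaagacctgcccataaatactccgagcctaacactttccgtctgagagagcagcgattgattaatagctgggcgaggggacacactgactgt

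The Fos window held TGACG 129 and 66 bases before the start site. The Fosb window held TGACG 60 bases before it, followed by the Egr motif at 50. The Egr2 window held TGACG at 111, a CArG box at 72 and TGACG on the opposite strand at 55. Windows were examined for 8 of the 10 genes. Fosl1 had no window and Egr1 was left out, so the counts of motifs do not cover them. TGACG was in those of 5 (Fos, Fosb, Junb, Egr2 and Atf3), and in 23% of 27025 genes with a window. The Egr motif was in the windows of Fosb and Fosl2 and in 6.27% of all genes, and the CArG box in that of Egr2 and in 1.81% of all genes. Neither the full element TGACGTCA (2.03% of all genes) nor the AP-1 motif TGANTCA (8.97%) occurred in a window of these 8 genes. These are matches of letters in a short window and no measurement of binding. Sites farther upstream were not searched, so a window with no match does not mean that the gene lacks the motif.

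Fos RNA led the group in every sample. It stood at 353, 146, 195 and 303 RPKM in MSC replicates 1 to 4 and at 194, 344, 92.7 and 145 in vehicle replicates 1 to 4. The groups overlapped over most of their range, with MSC replicate 1 and vehicle replicate 2 nearly equal at the top. Group means were 249 ± 95.7 RPKM for MSC and 194 ± 108 RPKM for vehicle (SD, n = 4 each), and Fos held rank 182 by mean level among the 12129 genes tested. Its log2 fold change was 0.44 (SE 0.40, 95% interval -0.46 to 1.34, limma adjusted p = 0.621). It was 0.14 without vehicle replicate 3 and 0.77 without vehicle replicate 2 (limma adjusted p = 0.86 and 0.405).

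Fosb, the Fos paralog whose truncated form is long-lived in brain, varied most. It was at 60.4, 10.1, 25.3 and 45.5 RPKM in the MSC samples and at 32.3, 68.7, 4.41 and 20.4 in the vehicle samples. The highest sample exceeded the lowest 5.99-fold among MSC veins and 15.6-fold among vehicle veins. Its log2 fold change of 0.41 had an interval from -1.31 to 2.13 (limma adjusted p = 0.83). This interval covers both a fall and a rise of more than 1 log2 unit, so the samples leave the direction unresolved.

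Fosl2 (Fra-2) and Fosl1 (Fra-1), which lack the strong activation domain of Fos, differed widely in level from each other. Fosl2 was steady, at 27.8, 34.5, 30.2 and 35.9 RPKM in MSC samples and at 28.4, 30.6, 25.7 and 27.0 in vehicle samples. MSC replicates 2 and 4 lay above every vehicle sample, and the log2 fold change was 0.19 (SE 0.10, limma adjusted p = 0.382). Fosl1 was low, at 0.761, 1.35, 0.694 and 1.10 RPKM in MSC samples (53 to 107 reads). In vehicle samples it was at 1.61, 0.579, 0.787 and 0.478 RPKM (32 to 127 reads). Its mean was under the 1 RPKM needed for the main test, so it was left out of that test. In the fit with no filter its log2 fold change was 0.108 (SE 0.191, limma adjusted p = 0.841). The groups overlapped, with vehicle replicate 1 highest and vehicle replicate 4 lowest of all 8.

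**Figure D1:**
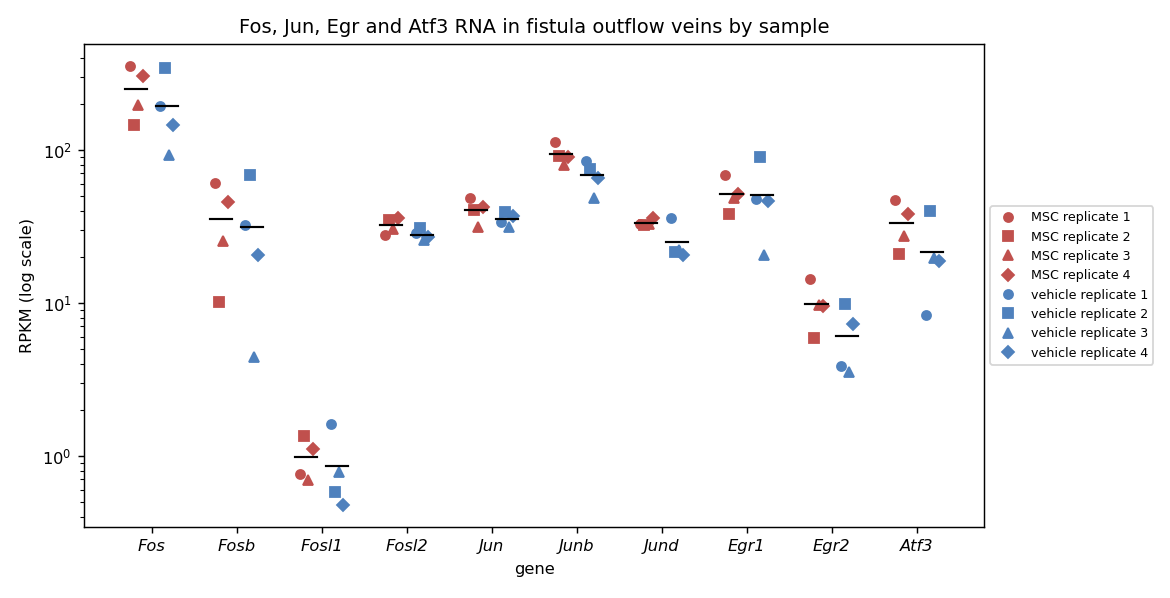
RPKM of the 10 genes on a log axis, with 1 marker per sample (shape gives the replicate number), MSC in red to the left of vehicle in blue, and a bar at each group mean. Fosb spreads from 4.41 to 68.7 RPKM over the vehicle samples, while Fosl2 stays between 25.7 and 35.9 in all 8.

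Among Jun genes, Junb was the most abundant and the call of Jund turned on 1 sample. Junb, which restrains Jun in some settings and pairs with Fos in early responses, was at 113, 91.2, 79.6 and 89.7 RPKM in MSC samples and at 83.9, 75.1, 48.6 and 65.3 in vehicle samples. Only vehicle replicate 1 exceeded the lowest MSC sample. The mean of Junb was 93.4 ± 14.2 RPKM with MSC and 68.2 ± 15.1 RPKM with vehicle (SD, n = 4 each), a log2 fold change of 0.46 (SE 0.17, 95% interval 0.08 to 0.85, limma unadjusted p = 0.0235, adjusted p = 0.230).

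Jund, the Jun gene with steady expression in resting cells, was at 32.7, 32.4, 32.6 and 36.0 RPKM in MSC samples and at 35.6, 21.6, 22.1 and 20.6 in vehicle samples. Vehicle replicate 1 lay among the MSC values, and the other 3 vehicle samples lay below all 4 of them. Over all samples the log2 fold change was 0.44 (SE 0.16, 95% interval 0.08 to 0.80, limma unadjusted p = 0.0212, adjusted p = 0.222). Without vehicle replicate 1, which also stood apart over all genes, it was 0.61 and passed (limma adjusted p = 0.0461). Over the 8 fits that leave out 1 sample each, the adjusted p of Jund ran from 0.0461 to 0.411.

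Jun itself, the founding Jun gene and a target of its own product, was at 48.1, 40.3, 31.4 and 42.5 RPKM in MSC samples and at 33.5, 38.9, 31.4 and 37.1 in vehicle samples. MSC replicates 1, 2 and 4 exceeded all vehicle samples, while MSC replicate 3 was at the vehicle minimum. The log2 fold change was 0.19 (SE 0.13, limma adjusted p = 0.517). Exons of Junb, Jund, Jun and Fosl1 overlap Prdx2, Gm11175, Junos and Ccdc85b on the opposite strand. The sources used here do not give the use of strand in counting, so values of these 4 genes may hold reads of those partners.

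The Fos family outweighed the Jun family at the RNA level in every sample, but by a factor that moved with Fos. Summed RPKM of the 4 Fos genes was 442, 192, 251 and 386 in MSC samples and 257, 444, 124 and 193 in vehicle samples. The 3 Jun genes summed to 194, 164, 144 and 168 in MSC samples and to 153, 136, 102 and 123 in vehicle samples. The ratio of Fos to Jun family RNA therefore ran from 1.17 to 2.29 in MSC veins and from 1.21 to 3.28 in vehicle veins. Fos made up 76.0% to 79.9% of the Fos family in MSC and 75.0% to 77.5% in vehicle samples, so its share was nearly fixed while the total varied. Fosb made up 5.26% to 13.6% in MSC samples, against 3.57% to 15.5% in vehicle samples. That of Fosl2 was highest where Fosb was lowest, at 18% in MSC replicate 2 and 20.8% in vehicle replicate 3. Junb made up 53.3% to 58.4% of Jun family RNA in MSC and 47.6% to 55.4% in vehicle samples.

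**Figure D2:**
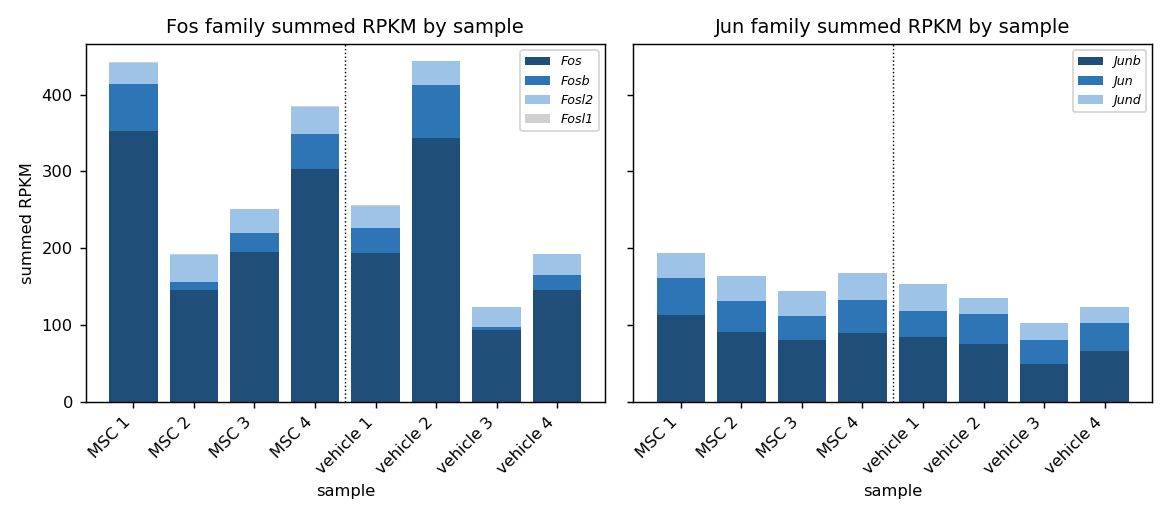
Summed RPKM of the Fos family (left panel) and the Jun family (right panel) by sample, with MSC samples left of vehicle samples and colours for the genes. The Fos bars run from 124 to 444 RPKM and the Jun bars from 102 to 194.

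Atf3, a stress-induced factor that can pair with Jun proteins and often represses inflammatory genes, was at 47.3, 20.7, 27.5 and 38.3 RPKM in MSC samples and at 8.34, 39.6, 19.6 and 18.8 in vehicle samples. Vehicle replicates 1, 3 and 4 were below every MSC sample, but vehicle replicate 2 exceeded 3 of the 4. The log2 fold change of Atf3 was 0.73 (SE 0.41, 95% interval -0.19 to 1.65, limma adjusted p = 0.408). Its mean was 33.4 ± 11.7 RPKM with MSC and 21.6 ± 13.1 RPKM with vehicle (SD, n = 4 each). Leaving out vehicle replicate 1 gave 0.37 and leaving out vehicle replicate 2 gave 1.07, so these 2 samples moved its value most, in opposite directions. With sample weights it was 0.14 (limma adjusted p = 0.841). Without vehicle replicate 1 the limma adjusted p was 0.599, and without vehicle replicate 2 it was 0.27.

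Egr1, the early growth response factor that binds GC-rich promoters, was at 68.3, 38.1, 48.1 and 51.0 RPKM in MSC samples and at 47.5, 89.2, 20.6 and 45.9 in vehicle samples. Vehicle replicates 2 and 3 lay on either side of the whole MSC range. The group means were nearly equal, 51.4 ± 12.6 RPKM with MSC and 50.8 ± 28.4 RPKM with vehicle (SD, n = 4 each), with a log2 fold change of 0.16 (SE 0.37, 95% interval -0.67 to 1.0, limma adjusted p = 0.866). Egr2 (Krox20), a relative induced in macrophages and needed for myelin in Schwann cells, was lower, at 14.2, 5.86, 9.70 and 9.50 RPKM in MSC samples and at 3.84, 9.78, 3.54 and 7.23 in vehicle samples. Vehicle replicates 1 and 3 were below all MSC samples, and the log2 fold change was 0.65 (SE 0.31, 95% interval -0.06 to 1.35, limma adjusted p = 0.341). The ratio of Egr1 to Egr2 was 4.82, 6.51, 4.95 and 5.36 in MSC samples and 12.4, 9.12, 5.80 and 6.35 in vehicle samples, with vehicle replicates 1 and 2 above every MSC sample. Schwann and nerve markers summed to 17.7 to 20.5 RPKM in MSC and 14.7 to 22.0 in vehicle samples over 8 genes.

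In order of mean level, MSC veins had Fos, Junb, Egr1, Jun, Fosb, Atf3, Jund, Fosl2, Egr2 and Fosl1. Sample ranges did not overlap between Fos and Junb, Junb and Egr1, Fosl2 and Egr2, or Egr2 and Fosl1, and all neighbours from Egr1 to Fosl2 overlapped. Vehicle veins had Fos, Junb, Egr1, Jun, Fosb, Fosl2, Jund, Atf3, Egr2 and Fosl1. Here the range of Fos was clear of that of Junb and the range of Egr2 clear of that of Fosl1, and all other neighbours overlapped. The first 5 places and the last 2 were thus held by the same genes in both groups.

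Read over all 9 genes tested, none passed an adjusted p of 0.05 in limma, and 2 (Jund and Junb) had an unadjusted p under 0.05, both higher in MSC veins. Over all 12129 genes, 28 passed (0.231%, with 0.0247% higher and 0.206% lower in MSC veins). An unadjusted p under 0.05 was found for 16.5% (10.1% higher and 6.36% lower in MSC veins), so 2 of 9 is close to the background. On reads recovered from the RPKM values, limma voom also called 0 of the 9, with 2 at an unadjusted p under 0.05. The groups overlapped in all 9 genes, against 9.78% of all genes without overlap (5.61% higher and 4.17% lower in MSC veins). All 9 log2 fold changes were above 0, as were 59.5% of all genes, with a median of 0.44 over the 9 and 0.04 over all genes. The direction was not held by every fit. Without vehicle replicate 3, the lowest vehicle sample for 7 of the 10 genes, Fosb was at -0.28 and Egr1 at -0.20, and the median of the 9 was 0.15.

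**Figure D3:**
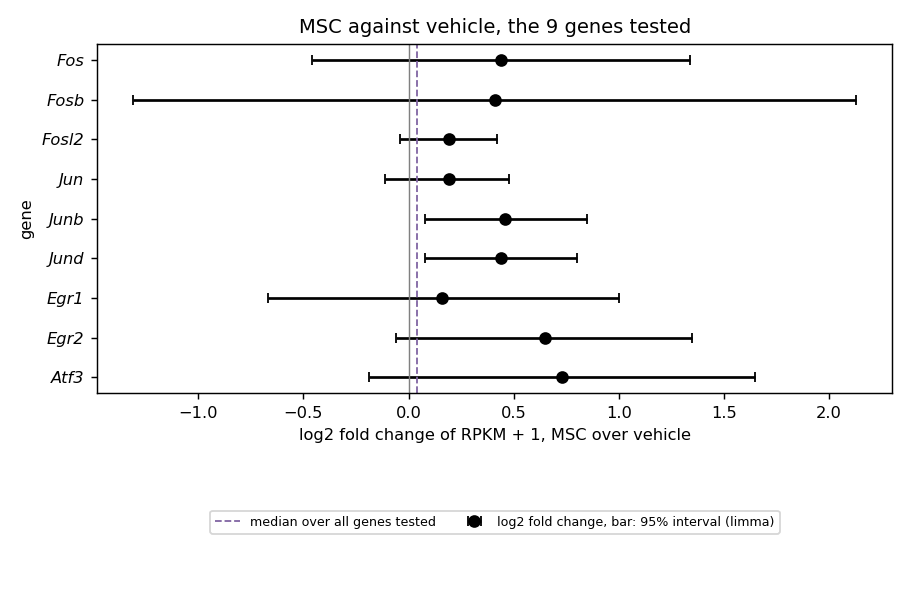
Log2 fold change of RPKM + 1, MSC over vehicle, for the 9 genes tested, with 95% intervals from limma. The dashed line is the median over all genes tested, 0.04. The intervals of Junb and Jund lie above 0 before adjustment for 12129 tests, and that of Fosb runs from -1.31 to 2.13.

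The spread between samples of the same group set these genes apart in size from one another. The within-group SD of log2(RPKM + 1) was 1.34 for Fosb, 0.71 for Atf3, 0.69 for Fos, 0.64 for Egr1 and 0.54 for Egr2, against a median of 0.15 over all genes. These 5 were at percentiles 96.3 to 99.8 of all genes tested. Among the 5292 genes that averaged 10 RPKM or more, Fosb was at percentile 99.7, Atf3 at 98.0, Fos at 97.8 and Egr1 at 97.4. The other 4 tested genes varied less, from percentile 40.8 for Fosl2 through 70.9 for Jun and 81.7 for Jund to 84.5 for Junb. The lowest read count behind any value of these 5 genes was 462, for Egr2 in vehicle replicate 3.

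**Figure D4:**
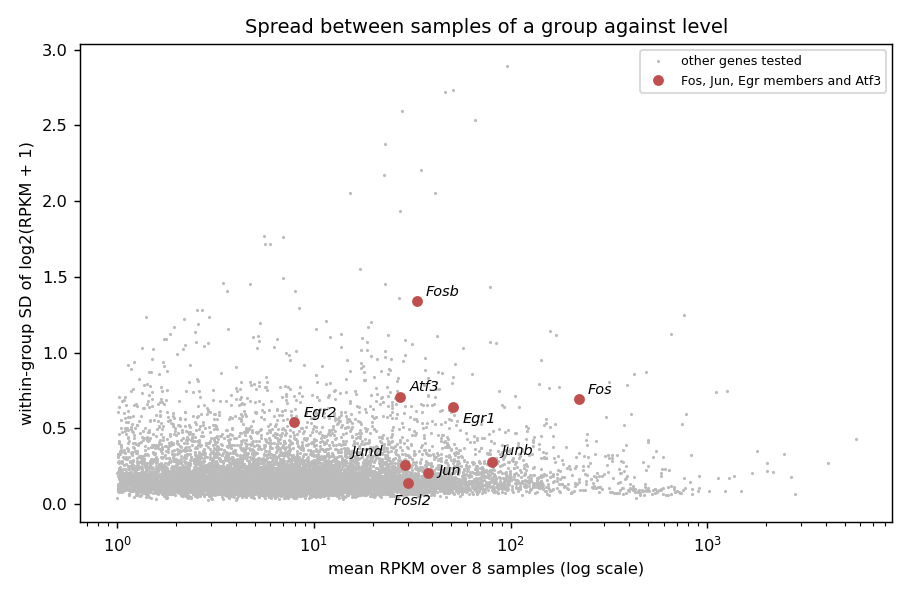
Within-group SD of log2(RPKM + 1) against mean RPKM over 8 samples (log axis) for all 12129 genes tested (grey) and the 9 members (red). Fosb, Atf3, Fos, Egr1 and Egr2 lie between 0.54 and 1.34, above the bulk of genes at their level, and Fosl2 and Jun lie within it.

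The 5 variable genes had the same highest sample in each group and the same lowest MSC sample. All of them but Atf3 also had the same lowest vehicle sample. MSC replicate 1 was the highest MSC sample for 7 of the 10 genes (Fos, Fosb, Jun, Junb, Egr1, Egr2 and Atf3), and MSC replicate 2 the lowest for 6. Vehicle replicate 2 was the highest vehicle sample for 7 (Fos, Fosb, Fosl2, Jun, Egr1, Egr2 and Atf3), and vehicle replicate 3 the lowest for 7. Vehicle replicates 1 and 3 broke this pattern. Vehicle replicate 1 was lowest for Atf3 and next to lowest for Egr2 but second highest for Fos, Fosb and Egr1. Vehicle replicate 3 was not lowest for Atf3, at 19.6 RPKM against 8.34 and 18.8 in vehicle replicates 1 and 4. Macrophages can induce Egr2 and Atf3 when activated. Summed macrophage markers were 3142 to 5204 RPKM in MSC and 2504 to 3335 in vehicle samples over 10 genes, highest in MSC replicate 1 and lowest in vehicle replicate 1. Among vehicle samples they were highest in replicate 3 (3335), where 7 of the 10 genes were lowest, and stood at 2795 in replicate 2, where 7 were highest. Summed neutrophil markers were 581 to 1383 RPKM in MSC and 244 to 831 in vehicle samples over 9 genes, highest in MSC replicates 1 and 2 (1383 and 1368) and lowest in vehicle replicate 1, although MSC replicate 2 was the lowest MSC sample for 6 of the 10 genes. The part of either cell type in the values was not tested beyond 1 fit: with the neutrophil score as a covariate, the log2 fold change was 0.39 for Fos, 0.45 for Fosb, 0.21 for Fosl2, 0.09 for Jun, 0.47 for Junb, 0.68 for Jund, -0.02 for Egr1, 0.37 for Egr2 and 0.26 for Atf3. That of Jund was the only one with an unadjusted p under 0.05 there (limma unadjusted p = 0.000897, adjusted p = 0.133).

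To say which profiles were most alike, log2 values of each gene were standardised over the 8 samples, and the root mean square difference between 2 genes was taken, with 0 for identical profiles. Fos was closest to Fosb at 0.26 and Egr1 closest to Fosb at 0.30, against a median of 1.41 and 1.44 over all genes. In both cases no other of the 12129 genes was closer. Atf3 and Egr2 were each other's nearest member at 0.50, with rank 25 among all genes for Atf3 and rank 13 for Egr2. Atf3 was farther from Fos, Fosb and Egr1 (0.8, 0.96 and 0.94) than Junb was (0.68, 0.77 and 0.79). The nearest member was Junb for Jund (0.68) and for Jun (0.69), and Fos for Junb (0.68). Among all genes these had rank 460, 85 and 155. Fosl2 was close to no member, at 0.89 for the nearest, Jund, which had rank 1217 among all genes.

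Outside the family, the genes nearest to Fos were Mir24-2 at 0.29, Dusp1 at 0.33 and Mir27a at 0.35. Dusp1, the MAP kinase phosphatase induced together with immediate-early genes, was at 195, 92.3, 116 and 139 RPKM in MSC samples and at 134, 137, 59.3 and 82.8 in vehicle samples. It was lowest in vehicle replicate 3 and highest in MSC replicate 1, as Junb and Fos were. The genes nearest to Egr1 were Mir27a at 0.32, Snord98 at 0.39 and Mir23a at 0.40. Exons of Mir24-2 overlap Gm26532 on the same strand. Mir23a, Mir27a and Mir24-2 are neighbouring hairpins on chromosome 8, and Mir27a and Snord98 rest on few reads (10 to 40 and 7 to 20 per sample). In a library made from longer RNA, such rows count fragments of precursors or hosts and say nothing of mature microRNA. The genes nearest to Atf3 were Mmp13, a collagenase gene with a known AP-1 site, at 0.17, Slc30a6, a zinc transporter, at 0.33 and Btg2, an antiproliferative immediate-early gene, at 0.35. Mmp13 stood at 2.85, 1.62, 1.69 and 2.35 RPKM in MSC samples and at 0.494, 2.26, 1.33 and 1.52 in vehicle samples, lowest like Atf3 in vehicle replicate 1.

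**Figure D5:**
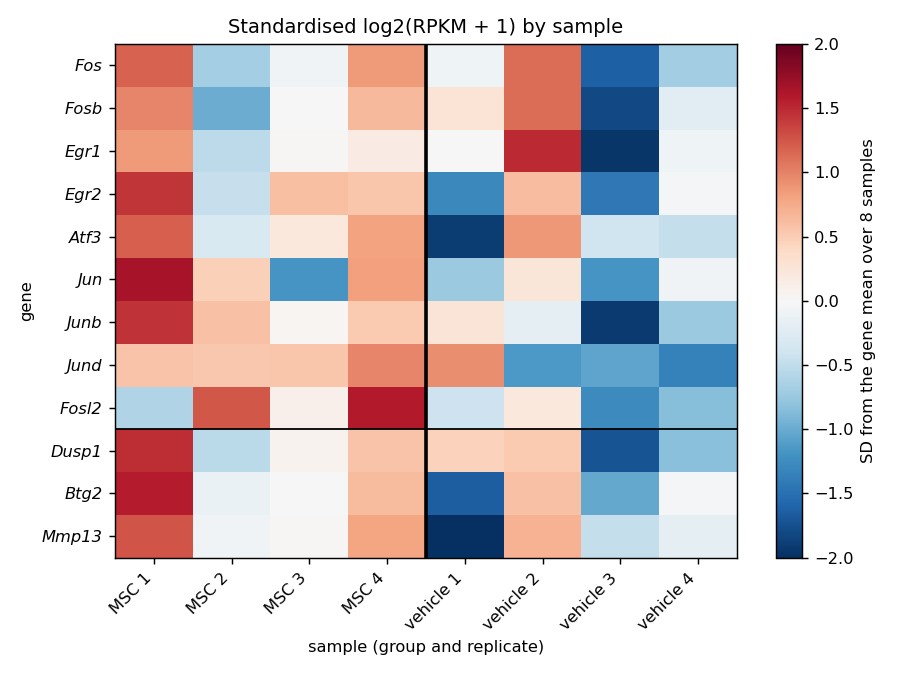
Log2(RPKM + 1) of each gene standardised over the 8 samples (colour, in SD from the gene mean), for the 9 members and, under the line, 3 genes near Fos or Atf3 in profile. MSC replicate 1 is red in all but Fosl2, vehicle replicate 3 is blue throughout, and vehicle replicate 1 is deep blue in Atf3, Egr2, Btg2 and Mmp13.

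Around these factors, the genes of the pathway gave 1 call in limma. The lists were chosen with earlier results of these data known. For the counts above 0 that follow, the share over all genes was 59.5%, and the median log2 fold change of all genes was 0.04. Among MAP kinases and their activating kinases, which carry the signal to immediate-early promoters, 14 of 23 log2 fold changes were above 0, with a median of 0.05. For 4 of the 23 the groups did not overlap, all higher in MSC veins, against 5.61% of all genes. Mapk3 (ERK1) stood at 51.1 ± 3.61 RPKM with MSC and 40.9 ± 2.27 RPKM with vehicle (mean ± SD, n = 4 each), a log2 fold change of 0.31 (limma adjusted p = 0.125). Its activator gene Map2k2 (MEK2) stood at 21.3 ± 1.12 RPKM with MSC and 17.1 ± 1.47 RPKM with vehicle (SD, n = 4 each), also 0.31 (limma adjusted p = 0.135). Rps6ka1, a kinase downstream of ERK, had a log2 fold change of 0.32, and Rps6ka2 one of 0.34. None of the 23 passed the adjusted threshold.

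Of 6 tested genes for SRF and its partners, 3 were above 0 and 3 below, and none passed. Srf was 9.40 to 10.8 RPKM in MSC samples and 6.93 to 8.59 in vehicle samples without overlap (log2 fold change 0.33, SE 0.09, limma adjusted p = 0.123). The myocardin-related genes had values of opposite sign, with Mkl1 at 0.28 and Mkl2 at -0.37, and the ternary complex factor gene Elk4 was at -0.23. Of 26 other AP-1 related genes of the basic leucine zipper class, 23 were tested, 16 were above 0 and none passed. Cebpb, a factor of acute inflammation, had a log2 fold change of 0.46, Nfe2 of 0.58, Maff of 0.18 and Atf4, the effector of the integrated stress response, of 0.17.

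The third Egr gene with enough RNA, Egr3, had a difference of 0.57 ± 0.22 on the log2 scale (SE; limma adjusted p = 0.237). The Egr corepressor genes Nab2, itself an Egr target, and Nab1 had 0.26 and 0.02. Among 10 dual-specificity phosphatases, which switch MAP kinases off, 7 were above 0 and none passed. Dusp16, which acts on JNK, was at 0.41 and Dusp8 at 0.50, each without overlap between groups. Dusp5, an ERK phosphatase, was at 0.57, and Dusp4 was lower in every MSC sample, at -0.53.

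Among 39 other immediate-early genes tested, 31 were above 0, with a median of 0.14. The single gene that passed went the other way. Tob1, which slows the cell cycle, was at 7.66, 8.24, 7.88 and 6.94 RPKM in MSC samples and at 22.0, 19.0, 14.8 and 14.2 in vehicle samples. It fell in MSC veins with a log2 ratio to vehicle of -1.07 ± 0.14 (SE; limma adjusted p = 0.0275) and its groups did not overlap. The call was lost without MSC replicate 1, 2 or 4 (limma adjusted p = 0.109, 0.0514 and 0.0974) and without vehicle replicate 2 or 3 (0.0935 and 0.0873), with log2 fold changes from -1.14 to -1.03. It was also lost with no filter (limma adjusted p = 0.0745), a replicate block (0.0725), the neutrophil score (0.101) or the adipocyte score (0.861) as a covariate, with log2 fold changes of -1.07, -1.07, -1.02 and -1.03 in these 4 fits. Ier3 (0.86), Plk3 (0.49) and Cyr61 (0.58), an integrin-binding matrix protein gene, had the next smallest p-values, as log2 fold changes, and did not pass (limma adjusted p = 0.0944, 0.108 and 0.135).

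Genes that AP-1 is known to switch on had a median log2 fold change of 0.35 over 24 tested, with 19 above 0, none past the adjusted threshold and 6 of 24 without overlap, all higher in MSC veins, against 5.61% of all genes higher without overlap. Lif, an interleukin-6 family cytokine, stood at 4.25 ± 0.368 RPKM with MSC and 1.81 ± 0.638 RPKM with vehicle (mean ± SD, n = 4 each), a log2 fold change of 0.93 (limma adjusted p = 0.0608). Csf1 was at 0.37, the matrix gene Tnc (tenascin C) at 0.74 and the macrophage elastase gene Mmp12 at 1.72. Macrophage markers were higher on average in the same samples, as given above, and their part in these values was not tested. Known Egr targets had a median of 0.31 over 17 tested, with 13 above 0 and none past the threshold. Their smallest p belonged to Vegfa, lower in all MSC samples (log2 fold change -0.55, limma adjusted p = 0.0608), and Fn1 (0.46) and Mmp14 (0.42) did not pass either. Without overlap were 1 higher and 1 lower of these 17, and 1 higher and 1 lower of 6 for SRF and partners. The counts were 2 and 1 of 10 dual-specificity phosphatases and 3 and 1 of 39 other immediate-early genes. They were 0 of 23 other basic leucine zipper genes and 0 of 3 other Egr and Nab genes. Over all genes the shares were 5.61% higher and 4.17% lower. Lif passed without vehicle replicate 1 (limma adjusted p = 0.029) and with a pseudocount of 5, either rescaling of the samples or sample weights (0.0307 to 0.0498). Vegfa passed with either rescaling and in voom (limma adjusted p = 0.0233 to 0.0461). Exons of Cebpb, Nab2, Rps6ka1, Dusp1, Dusp5, Dusp8, Plk3, Tnc, Mmp12 and Fn1 overlap another gene on the opposite strand, so these values are uncertain where strand was not used. Exons of Elk4 overlap Gm29103 on the same strand and Mfsd4a on the opposite strand, so its value is uncertain either way. Mkl1, Mkl2 and Cyr61 were not matched by symbol in the annotation used here, so overlaps of these 3 were not looked up.

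Adipocyte markers separated the groups, so a fit with their mean log2 level as a covariate extrapolates between them. In that fit the log2 fold changes of Fos, Fosb, Jun and Egr1 were -0.41, -0.93, -0.15 and -0.15, and those of the other 5 stayed above 0, between 0.18 and 0.36. No gene of the 9 had a limma adjusted p under 0.895 there. Skeletal muscle markers, which summed to 11.2 to 685 RPKM in MSC and 4.85 to 517 in vehicle samples over 10 genes, left all 9 above 0 as a covariate (smallest limma adjusted p = 0.269).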

How the data were processed

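RNA of 8 outflow vein samples (4 MSC, 4 vehicle) was made into libraries with a TruSeq V2 kit, per the labels' protocols. The authors deposited RPKM values, 1 column per sample with no pooling. They used mm10, per the submitters' processing notes. The sources used here do not give their aligner, read counter, annotation or use of strand.

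Groups were taken from the treatment label. The test was limma 3.58.1 (R 4.3.3) with a variance trend on log2(RPKM + 1), a scale that understates changes of low genes. P-values were 2-sided and adjusted by Benjamini-Hochberg over the 12129 genes that averaged 1 RPKM or more, with 0.05 as the threshold. The model held no covariate and no block. Intervals cover 95%.

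Low RPKM values step in whole reads. The steps returned whole reads, within 0.001 reads, for all 16164 genes above 0 in every sample. The closest pair of replicates, MSC 2 and MSC 3, had a chi-square per degree of freedom of 32.8. That is more spread than the counting of reads alone gives, so no pair was taken for a single library sequenced again. All samples were kept.

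The 10 genes and all gene lists were chosen with earlier results of these data known. Named list genes are the 4 with the smallest unadjusted p per list, and any that passed; 1 of them is not reported here. The 3 genes nearest in profile to Fos, Egr1 and Atf3 were named as well. Overlaps between genes were read from GENCODE vM21 (GRCm38, the assembly of mm10), and promoter sequences are from RefSeq on GRCm38.p6. Alternatives covered the pseudocount, the filter, scaling, sample weights, a replicate block, a fit without the trend, 3 marker scores as covariates, voom on recovered reads and each sample left out.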

Additional observations from a re-analysis of the deposited data

Results flagged for a closer look

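In 8 of 98 groups of 4 samples, over 49 genes, 1 sample lay far from the other 3, where chance gives about 1 in 20 groups. The gap to the nearest sample is given as a share of the group's range. For Jund it was 0.935 for MSC replicate 4 (36.0 RPKM, the others 32.4 to 32.7) and 0.899 for vehicle replicate 1 (35.6 RPKM, the others 20.6 to 22.1). For Lif it was 0.885 for vehicle replicate 1 (0.857 RPKM, the others 2.06 to 2.22), and for Plk3 0.859 for MSC replicate 1 (12.9 RPKM, the others 9.82 to 10.3). For Fn1 it was 0.840 for MSC replicate 3 (226 RPKM, the others 290 to 302) and 0.963 for vehicle replicate 4 (163 RPKM, the others 214 to 216). For Mmp14 it was 0.845 for vehicle replicate 4 (70.5 RPKM, the others 51.6 to 54.5), and for Mir23a 0.881 for MSC replicate 2 (12.9 RPKM, the others 32.3 to 34.9).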

How the results depend on the processing

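Of 189 fold changes of the 9 tested genes under 21 alternatives, 178 kept direction and side of the threshold. Jund passed without vehicle replicate 1, so the number of these genes called was 0 to 1 over the samples left out and 0 otherwise. With sample weights the log2 fold change was -0.00312 for Fos, -0.275 for Fosb and -0.178 for Egr1. With the adipocyte score as a covariate it was -0.41 for Fos, -0.93 for Fosb, -0.15 for Jun and -0.15 for Egr1, and with the neutrophil score -0.0193 for Egr1. Over the samples left out, Fosb ran from -0.282 to 0.947 and Egr1 from -0.201 to 0.487. The causes were not tested.

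The 28 genes called over the whole table became 10 with a pseudocount of 0.1, 59 with one of 5, 1 with no filter, 89 with median scaling, 129 with quantile normalisation, 73 with sample weights, 66 with the skeletal muscle score and 2 with the neutrophil score. Limma called 0 with the adipocyte score (637 at an unadjusted p under 0.05), and 0 to 170 with 1 sample left out. The 1 pathway gene called became 2 with a pseudocount of 5, sample weights or voom, 3 with either scaling, 0 with no filter, the adipocyte score or the neutrophil score, and 0 to 2 with 1 sample left out.

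Correlations over genes between samples with the same number, after removal of group means, were 0.143, -0.003, -0.332 and -0.122. With 4 samples per group these cannot settle whether the numbers mark a pairing, and the labels do not say. With a replicate block, limma called 0 genes, 0 pathway genes and 0 of the 9 (1768 genes at an unadjusted p under 0.05). The block lowered the SE of Junb from 0.172 to 0.1 (limma unadjusted p = 0.00318, adjusted p = 0.176). It raised that of Egr2 from 0.312 to 0.361 and that of Atf3 from 0.408 to 0.475.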
